A study of Mus musculus with 4 samples.

Results

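Binding sites of CTCF were compared between wild-type mouse gastruloids and gastruloids of a HoxB mutant called DelCBS7-10 here. Gastruloids are aggregates of embryonic stem cells that elongate and form a body axis in culture. Those of each genotype were collected 96 h after aggregation, pooled and fixed, and CTCF was mapped by ChIPmentation, in which the Tn5 transposase tags immunoprecipitated chromatin on the beads. In the mutant one HoxB allele is a full deletion, Del. Its second allele combines Del(i9-13), loss of the stretch from Hoxb9 to Hoxb13, with the insertion Ins(CBS5-10) of CTCF binding sites (CBS) 5 to 10 and the later removal Del(CBS7-10) of sites 7 to 10. A second mutant, InsCBS5-10, has the same alleles before that last deletion. Its CTCF and RAD21 lists were used only to look up sites of the first 2 lists. Each genotype and antibody had 1 library, and the sources used here do not say whether the mutant cells came from 1 clone. Every difference below is therefore a difference between 2 libraries, without a replicate check and without a test.

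The compared items were the peaks that the authors called in each library. Peaks on chromosomes 1 to 19 were kept, summits called in the same interval were reduced to the strongest, and the list of wild type then held 46670 peaks and that of DelCBS7-10 held 35805, together 82475 of the 135336 peaks in the 4 lists. A peak counted as shared where it overlapped a peak of the other list by 1 bp or more. Strength was the authors' fold enrichment, the ratio of signal to local background at the summit. It was ranked within its own list as a percentile, and fold enrichments of different lists are printed side by side as values only. The strongest 30% of each list were peaks with a fold enrichment of at least 8.03 in wild type (14001 peaks) and 6.46 in DelCBS7-10 (10745 peaks). Of these, 317 wild-type peaks had no DelCBS7-10 peak and 63 DelCBS7-10 peaks had no wild-type peak. At the limit, the last wild-type-only peak inside it near a gene lay by Rhag (fold enrichment 8.03) and the first outside by Mrps23 (8.02), and in DelCBS7-10 these lay by Osr1 (6.46) and Pax2 (6.45).

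CTCF is a zinc finger protein that reads a long, directional DNA motif. Cohesin, a ring that contains RAD21, extrudes chromatin loops and halts at CTCF bound in the right orientation, so that sites with both proteins commonly mark loop anchors and the borders of contact domains. CTCF is found at many of the same sites in different cell types, and DNA methylation within the motif can prevent its binding. In Hox clusters, CTCF sites lie between genes that are switched on one after another along the body axis.

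Promoters under strong peaks are shown first, as examples of the sequence under each class of peak. The sequences are RefSeq promoters of GRCm38.p6, the assembly that mm10 names, from 250 bp before to 50 bp after a start site, 5′ to 3′ on the strand of the gene. The core of the CTCF motif was searched on both strands as CCA, any 2 bases, AG, any 2 bases and GGC. A looser core, in which the A of CCA may be any base and which contains every match of the first, was added after the sequences had been seen, and its matches are in capitals. The promoter of Rapgef1, a guanine nucleotide exchange factor (chr2:29619470-29619769, plus strand), lay wholly under a strong wild-type peak. Except for its last bases it also lay under the shared DelCBS7-10 peak, which ended at 29619759. The fold enrichment was 21.6 in wild type and 15.2 in DelCBS7-10, at percentiles of 99.9 and 99.7. This promoter holds 3 matches of the looser core.

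Rapgef1: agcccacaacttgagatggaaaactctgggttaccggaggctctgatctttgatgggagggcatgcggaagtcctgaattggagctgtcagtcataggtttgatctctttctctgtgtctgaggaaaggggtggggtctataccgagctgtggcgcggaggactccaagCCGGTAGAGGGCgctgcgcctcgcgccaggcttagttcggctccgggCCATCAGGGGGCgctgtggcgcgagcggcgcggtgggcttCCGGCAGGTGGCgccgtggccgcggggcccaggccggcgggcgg

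Next are promoters under strong peaks of wild type only. Pds5b, which encodes a regulator of cohesin (chr5:150673577-150673876, plus strand), and Kctd6, an adaptor of a ubiquitin ligase (chr14:8213831-8214130, plus strand), each hold 1 match of the looser core and none of the stricter one. Sgpl1, which encodes sphingosine-1-phosphate lyase (chr10:61147635-61147934, minus strand), holds 1 match of the stricter core.

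Pds5b: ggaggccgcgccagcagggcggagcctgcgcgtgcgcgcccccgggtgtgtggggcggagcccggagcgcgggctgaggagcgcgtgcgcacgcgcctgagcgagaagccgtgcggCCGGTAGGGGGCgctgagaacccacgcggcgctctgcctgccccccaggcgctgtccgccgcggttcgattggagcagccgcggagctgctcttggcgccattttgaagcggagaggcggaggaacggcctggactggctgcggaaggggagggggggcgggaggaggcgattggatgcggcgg

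Kctd6: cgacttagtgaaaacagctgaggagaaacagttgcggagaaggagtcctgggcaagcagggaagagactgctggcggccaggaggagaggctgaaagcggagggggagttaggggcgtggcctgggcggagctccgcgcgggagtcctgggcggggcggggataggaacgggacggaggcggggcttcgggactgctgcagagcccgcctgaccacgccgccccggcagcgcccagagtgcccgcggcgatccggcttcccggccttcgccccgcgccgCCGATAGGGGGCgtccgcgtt

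Sgpl1: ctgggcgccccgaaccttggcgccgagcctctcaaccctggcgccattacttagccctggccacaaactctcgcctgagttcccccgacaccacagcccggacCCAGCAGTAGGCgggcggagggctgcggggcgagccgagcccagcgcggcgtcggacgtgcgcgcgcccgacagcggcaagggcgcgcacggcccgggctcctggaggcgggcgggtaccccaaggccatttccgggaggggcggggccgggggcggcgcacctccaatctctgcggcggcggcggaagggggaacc

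Last are promoters under strong peaks of DelCBS7-10 only, those of the transcription factor genes Dmrt3 (chr19:25610287-25610586, plus strand) and Pax7 (chr4:139832919-139833218, minus strand). They hold no match of either core.

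Dmrt3: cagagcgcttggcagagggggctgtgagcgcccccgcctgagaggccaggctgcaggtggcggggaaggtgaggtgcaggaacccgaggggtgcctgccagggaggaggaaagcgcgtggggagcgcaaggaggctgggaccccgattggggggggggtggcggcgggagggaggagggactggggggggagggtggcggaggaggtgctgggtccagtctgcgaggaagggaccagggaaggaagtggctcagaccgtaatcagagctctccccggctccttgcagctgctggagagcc

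Pax7: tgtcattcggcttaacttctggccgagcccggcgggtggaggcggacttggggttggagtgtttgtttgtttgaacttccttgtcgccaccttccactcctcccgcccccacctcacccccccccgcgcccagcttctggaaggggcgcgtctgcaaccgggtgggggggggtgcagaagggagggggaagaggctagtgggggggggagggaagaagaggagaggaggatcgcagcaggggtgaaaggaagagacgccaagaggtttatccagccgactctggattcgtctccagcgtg

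Over all 19573 promoters searched, 2.37% held the stricter core and 10.1% the looser one. Promoters of chromosome 18 and those beyond Hoxb13 on chromosome 11 were not searched, so none of them is counted in any class below. Of the 840 promoters that a strong shared wild-type peak overlapped, 14.4% (95% interval 12.1 to 17.0) held the stricter core and 39.6% (36.3 to 43.0) the looser. Of the 48 promoters under strong peaks of wild type only, 3 held the stricter core (6.25%, 1.31 to 17.2) and 24 the looser (50.0%, 35.2 to 64.8). Of the 6 under strong peaks of DelCBS7-10 only, 0 held either, which with so few promoters allows a share of up to 45.9%. These 6 belong to Tfap2d, Dmrt3, Pax7, Sox21, Flt1 and Pax2, all of them transcription factor genes except Flt1, a receptor for vascular endothelial growth factors. Promoters under wild-type-only peaks were also richer in CG dinucleotides, with a median of 29 per promoter against 22.5 under shared wild-type peaks and 13 over all promoters. Intervals here and below are exact Clopper-Pearson intervals and cover counting error only, and a match of these letters is a description of the sequence, not a measured site. The 48 promoters belong to 44 genes and some of them overlap each other, so they are not independent. Each promoter was searched whole, even where the peak overlapped a small part, such as 26 bp of a second Kctd6 promoter.

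Weak peaks made up most of the difference between the lists. Of all wild-type peaks 33.9% had no DelCBS7-10 peak, and of all DelCBS7-10 peaks 14.0% had no wild-type peak. Among wild-type peaks, the share found in DelCBS7-10 was 13.4% (12.4 to 14.4) in the weakest decile, 71.3% in the fifth and 98.9% (98.5 to 99.1) in the strongest. Among DelCBS7-10 peaks, the share found in wild type was 46.2% (44.5 to 47.8) in the weakest decile, 94.3% in the fifth and 99.7% (99.4 to 99.8) in the strongest. The peaks of highest mean rank kept their position to within a few bases: by Chl1, a neural cell adhesion molecule, the interval on chromosome 6 was 103649051 to 103649291 in wild type (fold enrichment 52.3) and 103649052 to 103649291 in DelCBS7-10 (48.0). By Wls, which encodes the carrier that brings Wnt proteins to the cell surface, the fold enrichment was 38.6 and 32.4, at percentiles of 99.98 and 99.97. InsCBS5-10 had 49.7 for CTCF and 45.2 for RAD21 by Chl1, and 32.7 and 29.7 by Wls. The upper quartile of its RAD21 list was 8.19. Whether such high values with both antibodies reflect CTCF binding was not tested. The lists do not give read numbers, so depth is unknown, and a peak that a list lacks is one not called, which does not show that CTCF was absent.

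**Figure D1:**
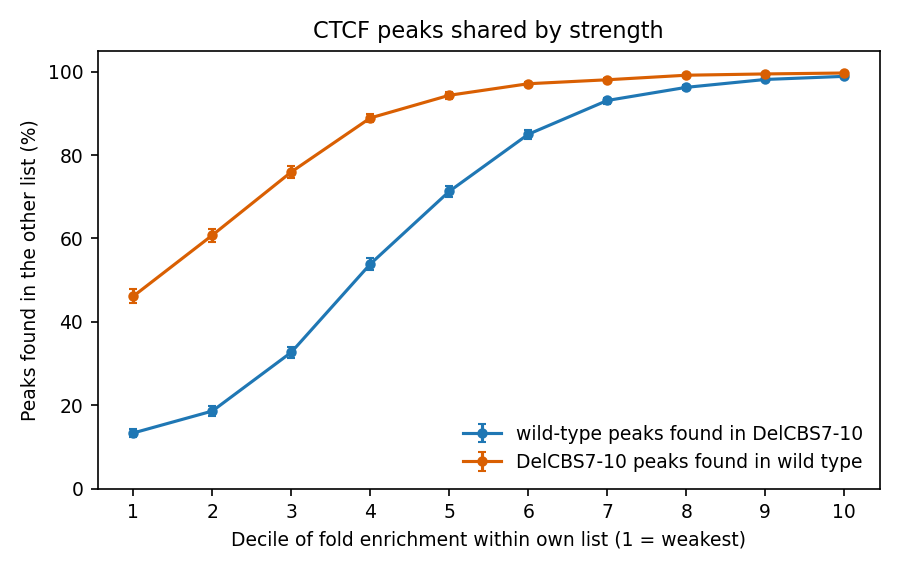
Share of CTCF peaks (y axis, percent) that overlapped a peak of the other list, by decile of fold enrichment within the own list (x axis, 1 is the weakest). Points are the shares and bars are exact 95% intervals. The wild-type line climbs from 13.4% to 98.9% and the DelCBS7-10 line from 46.2% to 99.7%.

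Among the strongest 30% of wild-type peaks, the 317 missing from DelCBS7-10 were 2.26% of 14001. Their median fold enrichment was 9.25, against 10.4 for the 13684 shared ones. The nearest DelCBS7-10 summit lay a median of 14036 bp away, and within 1 kb for 11 of the 317. In InsCBS5-10, the other mutant, 188 of the 317 had a CTCF peak (59.3%, 53.7 to 64.8), against 98.6% (98.4 to 98.8) of the shared ones. A RAD21 peak of InsCBS5-10 overlapped 175 of the 317 (55.2%, 49.5 to 60.8) and 75.2% (74.5 to 75.9) of the shared ones. The gap varied with strength. In decile 8, which held 176 of the 317, the shares were 57.4% and 66.3%. They were 60.2% and 77.8% in decile 9 (88 peaks), and 39.6% and 81.3% in decile 10 (53 peaks). Width and strength are mixed here and were not separated. The 32 of the 317 under 200 bp had a median percentile of 89.5, and 2 of them overlapped RAD21. Of the 285 of 200 bp or more, 173 did (60.7%, 54.8 to 66.4). Within 1 kb of an end of a protein-coding gene lay 60 of the 293 that could be annotated (20.5%, 16.0 to 25.6), against 12.8% (12.2 to 13.4) of the shared ones.

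The 317 peaks were split by width and by the third CTCF list. Those also called in InsCBS5-10 carried RAD21 in 139 of 188 cases (73.9%, 67.0 to 80.1) and lay near a gene end in 14.6% (9.69 to 20.8), but ranked at a median percentile of only 46.3 in that list, against 76.97 for shared wild-type peaks. The 129 missing from both mutants carried RAD21 in 36 cases (27.9%, 20.4 to 36.5) and lay near a gene end in 28.7% (20.9 to 37.6). The CTCF list of this split and the RAD21 list are both of InsCBS5-10. The RAD21 shares are therefore not independent of the split and do not show different kinds of wild-type site. The narrowest stood out: of the 51 strong wild-type peaks under 200 bp, 32 (62.7%, 48.1 to 75.9) were missing from DelCBS7-10, against 283 of 13450 (2.10%) of 200 bp to under 600 bp. Of these 32, 2 had a CTCF peak in InsCBS5-10 and 2 a RAD21 peak, and their median fold enrichment was 11.3.

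Narrow peaks also led the ranking by strength. The peak in 2210408I21Rik on chromosome 13 (77438909 to 77439055) had a fold enrichment of 50.6 in wild type, and neither the other CTCF lists nor the RAD21 list had a peak there. The same held for peaks by Gm20939 (32.9), in Lrp1b, a receptor of the low-density lipoprotein family (30.1), by Kpna1, an importin (22.4), in Capn8, a calpain (18.0), and in A1cf, an RNA-binding partner of an RNA-editing enzyme (17.3). These peaks were 135 to 182 bp wide, against a median of 411 bp for strong shared wild-type peaks. Further narrow ones, in the collagen gene Col23a1 (15.9) and the urea transporter gene Slc14a2 (15.6), were likewise called in wild type alone.

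Wider wild-type-only peaks included sites that carried cohesin in InsCBS5-10. In Atrnl1, which encodes an attractin-like membrane protein, the peak on chromosome 19 (58113305 to 58113596) had a fold enrichment of 19.1, no CTCF peak in either mutant, and a RAD21 fold enrichment of 11.03. In Stau2, which encodes an RNA-binding protein of neurons, the wild-type fold enrichment was 16.1, and InsCBS5-10 had a CTCF peak of 10.1 and a RAD21 peak of 9.94. At the start of Pds5b the values were 17.0 in wild type, 4.27 for CTCF in InsCBS5-10 and 4.93 for RAD21. In Pax2, a transcription factor gene of kidney and midbrain development, they were 15.7, 6.78 and 7.42. The CTCF percentiles in wild type and InsCBS5-10 were 98.95 and 95.7 in Stau2, 99.4 and 27.5 at Pds5b, and 98.7 and 68.6 in Pax2. Peaks beside gene ends with neither a mutant CTCF peak nor RAD21 lay by Utp6, a ribosome assembly factor (17.0, 44 bp from the end), and Kctd6 (16.6, 19 bp).

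Chromosome 11, which carries HoxB, held 68 of the 317 (21.5%, 17.1 to 26.4), against 5.95% of the shared strong peaks. There 7.71% (6.04 to 9.67) of strong wild-type peaks were missing from DelCBS7-10, against 1.90% (1.67 to 2.15) elsewhere. The authors aligned reads to a genome with 2 versions of this chromosome, and the median fold enrichment of wild-type peaks was 6.77 on it and 5.53 elsewhere, while that of DelCBS7-10 peaks was 5.28 and 5.31. The part of that alignment in the count was not tested. Without chromosome 11, 249 wild-type-only peaks were left, of which 52.2% carried RAD21 and 21.7% lay near a gene end. Within HoxB the wild-type peaks at 96214227 to 96214672 (fold enrichment 13.1) and 96238556 to 96238976 (13.7) were among the 68, in the coordinates of the authors' edited chromosome 11. Both had a CTCF peak in InsCBS5-10 (4.12 and 6.44), which carries Del(i9-13) as well. HoxB has at most 1 copy in the mutant and the limits of Del(CBS7-10) were not located in these coordinates, so fewer copies, lost sequence and less binding per copy cannot be told apart there.

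**Figure D2:**
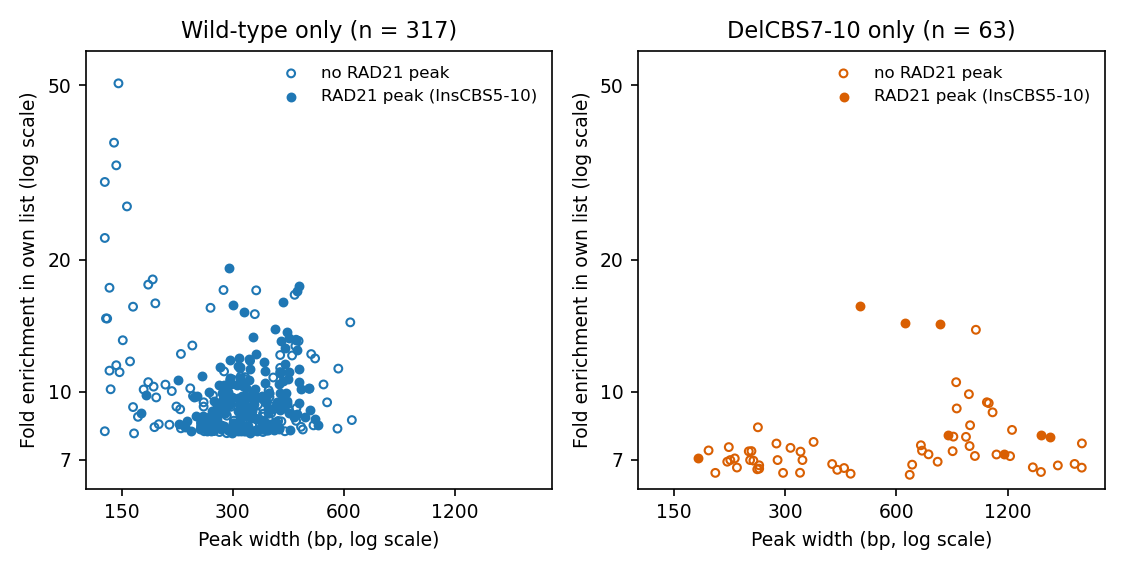
Width (x axis, bp, log scale) and fold enrichment in the own list (y axis, log scale) of each strongest-30% peak found in 1 list only. Each point is a peak, filled where a RAD21 peak of InsCBS5-10 overlapped it. The wild-type points include 32 peaks under 200 bp, of which 2 are filled, and 34 of the 63 DelCBS7-10 points lie at 600 bp or more.

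The 63 strong peaks of DelCBS7-10 that wild type lacked were 0.586% of 10745. They were wide, and most had no RAD21 peak in InsCBS5-10. Cohesin in DelCBS7-10 itself is not given by the lists. Their median width was 662 bp, against 413 bp for the 10682 shared ones, and 34 of them (54.0%, 40.9 to 66.6) reached 600 bp, against 16.7% (16.0 to 17.4). Several summits were called within 24 of the 63 (38.1%, 26.1 to 51.2), against 11.2% (10.6 to 11.8). RAD21 of InsCBS5-10 overlapped 8 of the 63 (12.7%, 5.65 to 23.5), against 69.1% of the shared ones, and with a RAD21 −log10 q of 5 or more only 3.17% remained. Within 1 kb of a gene end lay 16 of 60 (26.7%, 16.1 to 39.7), against 10.5% (9.96 to 11.1). In InsCBS5-10, 38 of the 63 were also called (60.3%, 47.2 to 72.4), at a median percentile of 34.7 in that list. RAD21 of InsCBS5-10 overlapped 7 of these 38 and 1 of the 25 with no CTCF peak there, a split that is again not independent of RAD21.

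Width marked these peaks from both sides. Of the 537 strong DelCBS7-10 peaks of 800 bp or more, 26 were missing from wild type (4.84%, 3.19 to 7.01), and of the 8817 of 200 bp to under 600 bp, 26 were missing (0.295%, 0.193 to 0.432). In wild type only 96 strong peaks reached 800 bp, and each of them was found in DelCBS7-10. Over all peaks the widths differed less, with medians of 305 bp in wild type and 323 bp in DelCBS7-10, but intervals with several summits made up 4.83% of the wild-type list and 9.36% of the DelCBS7-10 list. The part of this difference between the libraries in the 63 peaks was not tested.

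Many of the wide DelCBS7-10 peaks lay at genes of developmental transcription factors. By Dlx5, a homeobox gene of branchial arches and forebrain, the peak on chromosome 6 (6874144 to 6874778) had a fold enrichment of 14.3 in DelCBS7-10 and 7.80 in InsCBS5-10. By Prdm6, which encodes a chromatin regulator of smooth muscle, a peak of 985 bp on chromosome 18 had 13.8 and 5.77. In Tfap2d and Tfap2b, which encode AP-2 transcription factors, the values were 9.15 and 6.25, and 7.98 and 3.99. By Foxf1, a forkhead gene of lateral mesoderm, they were 8.97 and 4.96. Within their own lists the percentiles in DelCBS7-10 and InsCBS5-10 were 99.6 and 81.2 by Dlx5, and 99.6 and 53.2 by Prdm6. They were 94.8 and 60.8 in Tfap2d, 87.8 and 22.3 in Tfap2b, and 94.0 and 39.5 by Foxf1. Vax2 (9.46), a homeobox gene of the ventral eye, and Lhx5 (8.38), a LIM homeobox gene of the brain, had no peak in InsCBS5-10.

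The same class held the T-box genes Tbx15 (7.89) and Tbx18 (7.88), the latter a gene of the anterior part of each somite. It also held Dmrt3 (8.18), a gene of spinal interneurons, and Pax7 (7.62), a gene of dorsal neural tube and muscle precursors, whose peak of 1908 bp covered the whole promoter printed above. Genes of other kinds were the cell cycle inhibitor Cdkn2c (10.5), Nrn1, which encodes neuritin (9.41), Spag6, a gene of the sperm flagellum (14.2), and Sgpl1 (9.87). Where RAD21 of InsCBS5-10 overlapped these peaks its fold enrichment was low, 2.91 by Dlx5, 3.01 in Spag6, 2.81 in Tfap2b and 3.37 in Tbx18. Further peaks of the 8 with RAD21 lay by Skida1 (3.48), by Cd209a (9.51) and on chromosome 9 at 3258606 to 3259084 (23.1), with no gene within 10 kb. The last was the strongest of the 63, with a fold enrichment of 15.7 in DelCBS7-10 and 13.6 in InsCBS5-10.

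Counted by symbols of transcription factor families (Hox, Pax, Tbx, Sox, Lhx, Fox, Dlx, Tfap2, Zic, Nkx and others), a grouping chosen after these genes had been seen, 21 of the 45 strong DelCBS7-10-only peaks near a gene belonged to such a family (46.7%), at 21 different genes. All 21 were among the 31 peaks of 600 bp or more, and 0 among the 14 narrower ones. Such genes were nearest to 79 of 7242 strong shared DelCBS7-10 peaks (1.09%), to 15 of 1272 shared ones of 600 bp or more (1.18%) and to 8 of 214 strong wild-type-only peaks (3.74%). They are 227 of the 20106 protein-coding genes considered (1.13%). Among the weaker DelCBS7-10-only peaks near a gene, 128 of 3289 had such a nearest gene (3.89%).

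**Figure D3:**
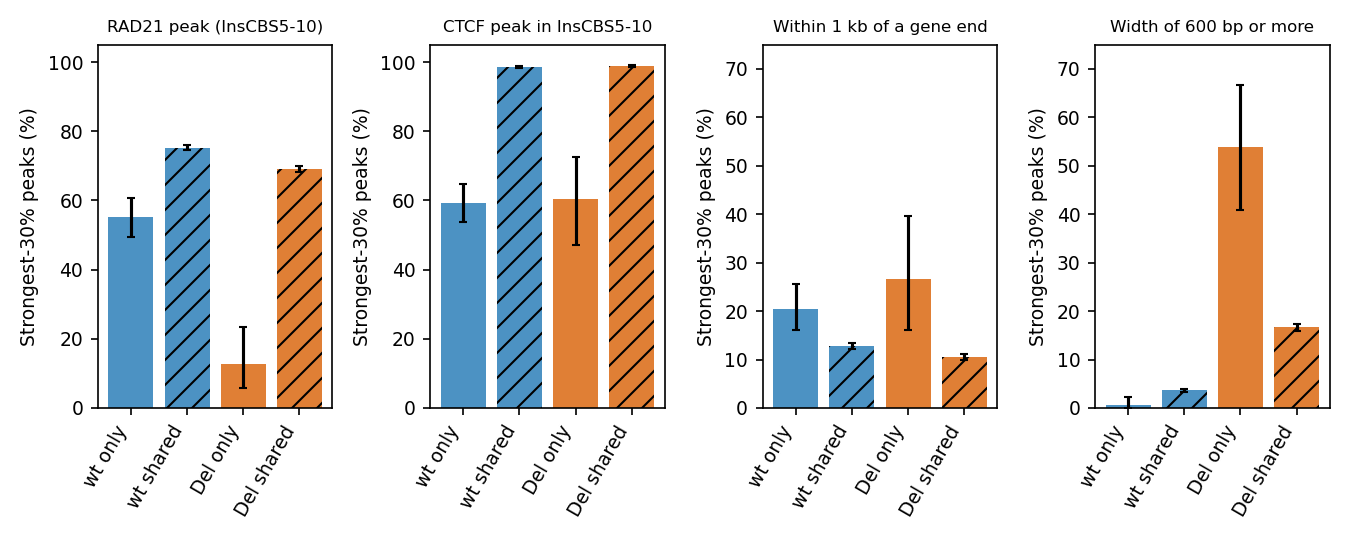
Share (y axes, percent) of strongest-30% CTCF peaks with each of 4 features, for peaks found in 1 list only (plain bars) and shared peaks (hatched bars) of wild type (wt) and DelCBS7-10 (Del). Lines are exact 95% intervals. RAD21 of InsCBS5-10 overlapped 12.7% of DelCBS7-10-only peaks against 69.1% of shared ones, and 54.0% of DelCBS7-10-only peaks reached 600 bp against 16.7%.

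Sgpl1, Pax2, Hoxd13 and Onecut3 were each the nearest gene of a strong 1-list-only peak in both lists, and Hoxc9 had one of each within 5 kb; these 5 loci were picked once the values were known. In Sgpl1 the wild-type peak on chromosome 10 (61147742 to 61148144, fold enrichment 12.1) covered part of the promoter, and the DelCBS7-10 peak (61146528 to 61147470, 9.87) lay inside the gene, with 793 bp between summits. In Pax2 a wild-type peak of 300 bp (44754756 to 44755055 on chromosome 19, 15.7) lay next to a DelCBS7-10 peak of 1823 bp (44755834 to 44757656, 6.84) that covered a Pax2 start site. By Hoxd13, the last gene of HoxD, the wild-type peak on chromosome 2 (74672947 to 74673372, 13.2) overlapped RAD21 of InsCBS5-10 (7.85). The DelCBS7-10 peak (74668285 to 74669404, 7.19) did not, and InsCBS5-10 had a CTCF peak at neither. By Hoxc9 the wild-type peak on chromosome 15 (102987454 to 102987800, 12.2) overlapped a RAD21 peak (9.58) and a CTCF peak (5.07) of InsCBS5-10. The DelCBS7-10 peak (102976009 to 102977486, 6.56) overlapped neither. By Onecut3, a neural homeobox gene, the wild-type peak on chromosome 10 (80506237 to 80506486) had 9.45 and the DelCBS7-10 peak (80503709 to 80504407) had 7.54. In each of the 5 pairs the wild-type peak was the narrower.

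Shared peaks kept their place closely and their rank loosely. Of 30696 pairs of mutually best overlapping peaks, 82.2% had summits within 50 bp, with a median distance of 21 bp. Percentiles of the 2 lists had a Pearson correlation of 0.67 across these pairs, which are not independent and are all from the same 2 libraries. The difference, DelCBS7-10 minus wild type, had a median of -6.86 percentile points with quartiles of -21.8 and 4.78. Ranked among shared peaks only, so that both ranks ran over the same number of peaks, the median was 0.11 and the quartiles were -13.9 and 14.1. This second ranking gives both lists the same mean rank by construction, so its median says nothing about a shift. The first depends on how many unshared peaks each list holds. In the full lists, shared peaks had a median percentile of 66.2 in wild type and 56.7 in DelCBS7-10.

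A fall of 50 percentile points or more was seen at 815 pairs (2.66%) and an equal rise at 82 (0.267%), but at 618 (2.01%) and 573 (1.87%) when ranked among shared peaks only, so that the excess of falls depends on the ranking. The 815 lay within 1 kb of a gene end in 22.1% (19.2 to 25.2) of cases and the 82 in 2 of 79 (2.53%, 0.308 to 8.85), against 9.75% (9.41 to 10.1) of the other pairs. RAD21 overlapped 65.4% of the 815 and 17.1% of the 82. A fall this large needs a high rank in wild type and a rise a low one, and over all wild-type peaks the RAD21 share went from 5.44% in the weakest decile to 80.8% in the strongest. The shares by direction are therefore bound up with the choice of pairs, and nothing is read from them.

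Named pairs show the size of these shifts. By Ptpru, a receptor tyrosine phosphatase, the fold enrichment was 14.1 in wild type and 3.04 in DelCBS7-10, at percentiles of 97.1 and 4.60, with RAD21 at 9.69. By Ubqln4, a proteasome shuttle factor, it was 13.1 and 2.92, and by Crocc, the rootletin gene of cilia, 12.1 and 2.97. By Spin1, a reader of histone methylation, it was 11.4 and 3.01, and the other 6 of the 10 largest falls lay by Otud3, Trpc4ap, Synpo, Limd1, Ywhag and Ttc21b. In the other direction, the pair by Serinc5, a membrane protein that restricts retroviruses, had 3.58 in wild type and 13.1 in DelCBS7-10, at percentiles of 24.7 and 99.4 and widths of 441 bp and 913 bp. The cation channel gene Trpm3 had 3.25 and 8.44, and Vcan, which encodes the matrix proteoglycan versican, 4.16 and 9.36. Near Snrpe, a spliceosome subunit gene, one pair had 2.79 and 6.89, while a wild-type-only peak on its promoter side (chromosome 1, 133610214 to 133610618, 146 bp from the gene) had 13.1 and carried RAD21 at 10.4. The other 6 rises lay by Me1, Glt1d1, Kcnj4, Tbc1d1, Dst and Tcfl5.

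**Figure D4:**
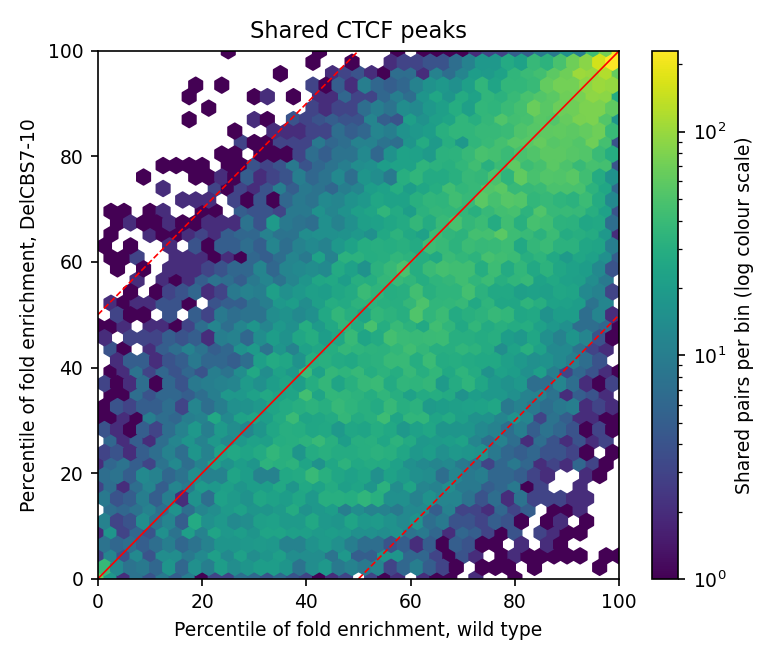
Percentile of fold enrichment within the own list in wild type (x axis) and DelCBS7-10 (y axis) for the 30696 shared pairs, as hexagonal bins coloured by the number of pairs on a log scale. The solid line marks equal percentiles and the dashed lines a difference of 50 points. Beyond the lower dashed line lie 815 pairs and beyond the upper 82, against 618 and 573 when ranked among shared peaks only.

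Genes of axial patterning and cell identity were then read as lists, by peaks of any strength within 5 kb of the gene body. Of all 20106 protein-coding genes, 55.5% had a shared peak, 31.7% had a wild-type-only peak and 14.0% a DelCBS7-10-only peak, while 1.12% and 0.199% had such a peak of the strongest 30%. Neighbouring genes can share a peak. Counts near these backgrounds say nothing about a list, and the lists were chosen with earlier results of these data known.

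Of 31 genes of HoxA, HoxC, HoxD and Evx, the homeobox genes that give position along the body axis, 11 had a wild-type-only peak and 15 (48.4%) a DelCBS7-10-only peak. The strongest wild-type-only peak of each of these 11 genes, 6 different peaks in all, overlapped RAD21, and 0 of them reached 600 bp. Of all wild-type-only peaks, RAD21 overlapped 11.3% of the weaker and 55.2% of the strong ones. Only 1.44% of the weaker and 0.631% of the strong ones reached 600 bp, so the 0 says nothing about Hox genes. Among the 6 peaks, that by Hoxa13 had a fold enrichment of 8.88 with RAD21 at 12.1. The peak shared by Hoxc4, Hoxc5 and Hoxc6 had 9.83 with RAD21 at 5.25. One peak by Hoxd10 and Hoxd11, below the strongest 30%, had 6.23 with RAD21 at 13.4. The strongest DelCBS7-10-only peak of each of the 15 genes, 11 different peaks in all, overlapped RAD21 in 0 cases, where of all DelCBS7-10-only peaks 2.78% of the weaker and 12.7% of the strong ones did. It reached 600 bp for 8 of the 15 genes, such as Hoxc11 (1906 bp, 6.71) and the peak of 1086 bp that Hoxd10, Hoxd11 and Hoxd12 share (6.14). This count is by gene, so a peak that genes share is counted for each. Of all DelCBS7-10-only peaks, 1.53% of the weaker and 54.0% of the strong ones reached 600 bp. Shared Hox peaks ranged from the site by Hoxc10, at 17.0 in wild type and 8.87 in DelCBS7-10, to that by Hoxc12, at 4.71 and 3.57. The percentiles were 99.3 and 93.5 by Hoxc10, and 40.6 and 15.5 by Hoxc12.

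Neural transcription factor genes had DelCBS7-10-only peaks in 15 of 23 cases (65.2%) and wild-type-only peaks in 7 (30.4%). Strong ones of DelCBS7-10 lay by Pax7, Lhx5, Tfap2d and Dlx5, described above, and the list had 0 strong ones of wild type. Weaker ones lay by Tfap2a (fold enrichment 6.32), Irx3 (4.47), Neurog1 (4.19), Nkx6-1 (4.01), Isl1 (3.82), Pax6 (3.68) and Sox1 (3.16), which act in the neural plate, the neural crest or differentiating neurons. Of the strongest such peak of each of the 15 genes, RAD21 overlapped 1 and a CTCF peak of InsCBS5-10 overlapped 4, and 7 of them had a −log10 q of 5 or more. Over all DelCBS7-10-only peaks, RAD21 overlapped 2.78% of the weaker and 12.7% of the strong ones. A CTCF peak of InsCBS5-10 overlapped 17.5% and 60.3%, so these overlaps are not read as particular to neural genes. Of 18 genes of endoderm, heart and lateral mesoderm, 6 had a peak of either kind, with strong DelCBS7-10-only peaks by Foxf1 and Prdm6 and a weaker one of 1050 bp in Gata4 (4.92), a cardiac transcription factor gene.

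Of 20 somite and paraxial mesoderm genes, 8 had a wild-type-only and 6 a DelCBS7-10-only peak. The only strong ones were by Hes7, an oscillating repressor of the segmentation clock (wild type, 8.41), and by Tbx18. Axis elongation genes had wild-type-only peaks in 7 of 18 cases and DelCBS7-10-only peaks in 3 (16.7%), none of them strong. The strongest peak by Fgf8, a growth factor gene of the tail bud, had a fold enrichment of 11.1 in the wild-type list and 6.93 in the DelCBS7-10 list. By Cdx2, a homeobox gene that activates posterior Hox genes, these were 13.0 and 6.08. Pluripotency genes had 4 and 3 of 17, and Nanog, which maintains the pluripotent state, had only weak wild-type-only peaks (3.43 at most).

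CTCF and cohesin genes had wild-type-only peaks in 10 of 15 cases and DelCBS7-10-only peaks in 3. The peak at Pds5b was the only strong one, and the strongest wild-type-only peak of each of the other genes ran from 2.84 by the cohesin loader gene Nipbl to 6.05 by Yy1. At Ctcf itself all 3 peaks were shared. The strongest of each list had 11.3 in wild type and 9.09 in DelCBS7-10, at percentiles of 89.2 and 94.5. Imprinted genes, several of which are controlled by CTCF sites that are methylated on one parental allele, had 12 and 7 of 23, with 0 strong ones in either list. The highest was a wild-type-only peak of 177 bp by Gnas (7.496).

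**Figure D5:**
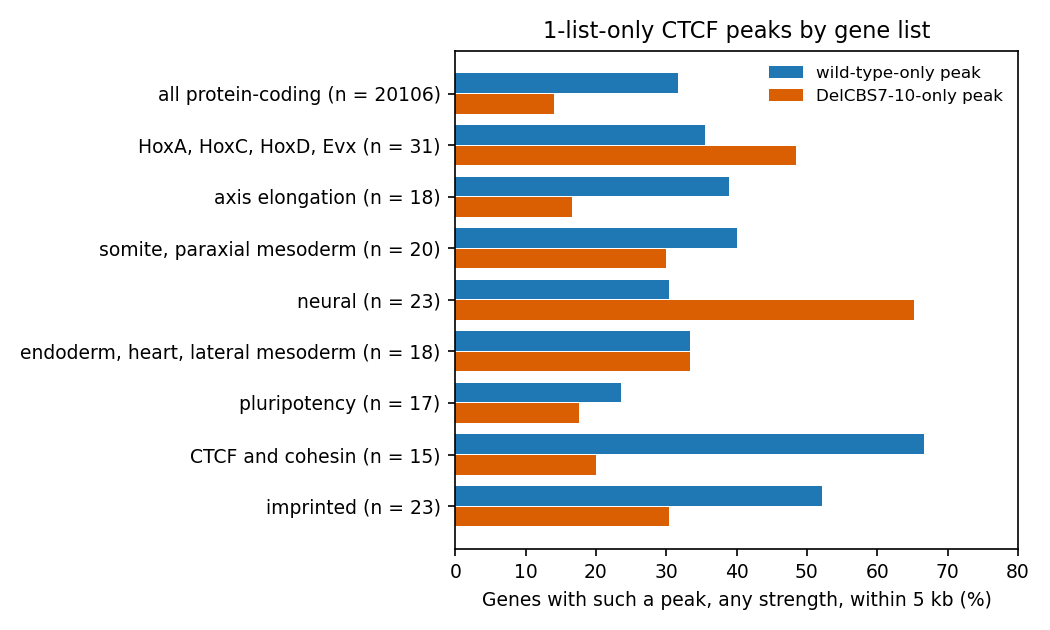
Share of genes (x axis, percent) with a wild-type-only (blue) or DelCBS7-10-only (orange) CTCF peak of any strength within 5 kb of the gene body, for all protein-coding genes and 8 gene lists, with the number of genes in brackets. Neural genes reached 65.2% for DelCBS7-10-only peaks and the Hox list 48.4%, beside 14.0% of all genes.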

How the data were processed

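CTCF ChIPmentation peak lists of wild-type and DelCBS7-10 gastruloids (1 library each) were compared, with the CTCF and RAD21 lists of InsCBS5-10 for look-up. Per the submitters' processing notes, cutadapt 4.1, MACS2 2.2.7.1 and mm10 were used; the sources used here name no aligner, mapping-quality filter or control. The deposited lists give, per peak, the authors' score (10 times −log10 q), the authors' fold enrichment (a ratio to local background), and the authors' −log10 p and −log10 q, of which the smallest was 1.30. Depth is unknown, so list length and fold enrichment can differ with depth alone. Strength was therefore compared between lists by rank within a list. Fold enrichments of different lists that stand side by side are printed as values only. The RAD21 list of wild type is tied to no sample in the labels and was not analysed here (1 list); RAD21 of InsCBS5-10 was used in its place, so it may miss wild-type cohesin sites.

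Equal intervals were merged to the summit of highest −log10 q, and chromosomes 1 to 19 were kept. Peaks were paired one to one, each choosing the partner with the largest overlap. Genes came from a RefSeq table of GRCm38.p6 without strand, so distances are to the nearer gene end. Chromosome 11 was edited by the authors, and peaks beyond Hoxb13 there were not annotated. Nearest genes were named within 10 kb for the 15 strongest 1-list-only peaks of each list, the 10 largest rank shifts in each direction, the 5 shared pairs of highest rank, the peaks at the limit, and members of 8 gene lists with a strong 1-list-only peak. Some genes that this rule names are not reported here. Genes and peaks named besides these were chosen after their values were seen. Members and lists were chosen with earlier results of these data known. Overlap and ranking were tested on simulated data. Python 3.11.15, pandas 2.3.3 and scipy 1.17.1 were used. With 1 library per group no test was made. Alternatives for overlap, thresholds, ranking and chromosome 11 were computed.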

Additional observations from a re-analysis of the deposited data

How the results depend on the processing

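With a reciprocal overlap of 50%, with summits within 100 bp, and with both lists limited to −log10 q from 5 upwards, the share of wild-type peaks found in DelCBS7-10 was 58.8%, 62.0% and 71.9% (66.1% as reported), and the reverse share 76.7%, 80.8% and 94.1% (86.0%). The number of strong peaks in wild type only and in DelCBS7-10 only was 1115 and 612 with the reciprocal overlap, 522 and 183 with summits within 100 bp, 738 and 112 when the list searched was limited to −log10 q from 5 upwards, and 53 and 12 for the strongest 10%. Ranking by −log10 q gave 261 and 55, the first listed summit 323 and 63, and leaving out chromosome 11 gave 249 and 59, all within 1.5 times of 317 and 63. In each of these settings wild type had more such peaks, but its list is also the longer, 46670 against 35805 peaks. A longer list holds more strong peaks and offers more matches, so this order is not read as a difference in binding. Ranked among shared peaks only, the median percentile difference was 0.11 in place of -6.86, where both ranks have the same mean by construction. The interquartile range was then 27.9 points, against 26.5 as reported and 24.5 by −log10 q.

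With RAD21 summits within 100 bp, strong shared peaks of wild type and DelCBS7-10 overlapped RAD21 in 73.6% and 67.1%. With RAD21 peaks of −log10 q 5 or more the values were 67.9% and 60.8%, and 3.17% for DelCBS7-10-only peaks. Within 5 kb of a gene end lay 38.2% of strong wild-type-only, 33.0% of wild-type shared, 48.3% of DelCBS7-10-only and 29.0% of DelCBS7-10 shared peaks. The looser motif core, added after the sequences were seen, was in 10.1% of all promoters searched, 39.6% under wild-type shared, 50.0% under wild-type-only and 41.3% under DelCBS7-10 shared strong peaks, against 2.37%, 14.4%, 6.25% and 15.1% for the stricter core, so the order of wild-type-only and shared promoters depends on this choice. No paired analysis was possible because each group has 1 library and the result comes from no test. Depth is unknown, and a site under the calling threshold of a list cannot be told from an unbound one.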

Other observations

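Chromosome X was left out of the ranking and is given as values. Wild type had 1166 CTCF peaks on it, of which 55.1% (52.2 to 57.9) were found in DelCBS7-10, and DelCBS7-10 had 749, of which 85.8% (83.1 to 88.3) were found in wild type. At the fold enrichment that limits the strongest 30% on the other chromosomes, 27 of 250 wild-type peaks were missing from DelCBS7-10 (10.8%, 7.24 to 15.3), and 0 of 180 DelCBS7-10 peaks were missing from wild type, which allows a share of up to 2.03%. The median fold enrichment on chromosome X was 5.41 in wild type and 5.24 in DelCBS7-10.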
